A study of Mus musculus with 18 samples.

Results

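The Bcl2 family of mitochondrial apoptosis regulators was followed through heat stress (HS) and tunicamycin treatment in NIH3T3 cells, an established mouse fibroblast line. Its 10 members studied here were taken by gene symbol: the survival genes Bcl2, Bcl2l1 (encoding Bcl-xL) and Mcl1, the effectors Bax and Bak1, and the BH3-only genes Bid, Bad, Bcl2l11 (BIM), Bbc3 (PUMA) and Pmaip1 (NOXA). These were 10 of the 20207 genes listed in each of 18 mRNA-seq libraries, and all 10 were among the 12731 genes that had a read in every library and were tested. The libraries form 6 groups of 3: unstressed cells at 0 min, called the reference, cells after 45 or 135 min of HS, and cells after 45, 135 or 405 min with tunicamycin, an inhibitor of N-linked glycosylation that loads the endoplasmic reticulum with misfolded protein. The cells of every group, the reference included, stably carried superfolder GFP fused to an FKBP-derived destabilizing domain (DD-GFP) and were kept in its stabilizing ligand Shield-1 throughout, so that the domain stayed folded. They were a sorted population with high GFP rather than a clone. The labels do not say whether replicates came from separate cultures, so the p-values measure the spread between these libraries, which may be technical.

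The family decides whether the outer mitochondrial membrane stays intact. Survival members hold effectors and BH3-only proteins in check, effectors form pores that let cytochrome c reach the cytosol, and BH3-only proteins carry stress signals to both. Several BH3-only genes are controlled by transcription, Bbc3 and Pmaip1 by p53 and Bcl2l11 by FOXO factors and, in cells with a stressed endoplasmic reticulum, by CHOP (Ddit3). Other members such as Bad and Bid are controlled mainly at the protein level, by phosphorylation and cleavage.

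The BH3 helix is the part through which BH3-only proteins and effectors bind other members. Its coding stretch is shown for the 6 members whose transcripts changed at 405 min of tunicamycin, the survival gene Bcl2l1 included. Capitals mark the codons of the helix core, found by translating the reference coding sequences and searching for leucine, any 3 residues, a small residue (glycine, alanine or serine) and aspartate. Each stretch is 54 bases long and is printed 5′ to 3′ on the coding strand of the mm9 assembly (NCBIM37, GENCODE vM1).
Bbc3, chr7:16899104-16899157, plus strand, exon 3 of 4: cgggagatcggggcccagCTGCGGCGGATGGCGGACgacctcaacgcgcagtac
Bcl2l11, chr2:127972868-127972921, plus strand, exon 3 of 4: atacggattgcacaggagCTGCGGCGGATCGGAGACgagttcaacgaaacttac
Bid, chr6:120847298-120847351, minus strand, exon 4 of 7: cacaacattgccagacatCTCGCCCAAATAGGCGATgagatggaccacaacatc
Bad, chr19:7025264-7025317, plus strand, exon 3 of 4: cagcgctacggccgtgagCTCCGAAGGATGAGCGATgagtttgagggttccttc
Bax, chr7:52721358-52721411, minus strand, exon 3 of 6: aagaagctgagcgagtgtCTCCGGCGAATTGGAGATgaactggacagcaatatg
Bcl2l1, chr2:152655424-152655477, minus strand, exon 2 of 3: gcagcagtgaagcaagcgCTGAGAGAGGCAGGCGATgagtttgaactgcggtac

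The stretches all hold the core pattern because they were found by searching for it, and they differ in base composition. That of Bbc3 was 72.2% G and C, and those of Bid and Bax were the lowest of the 6. Over the whole transcript, Bbc3 (65.2%), Bax (62.6%) and Bad (61.3%) stood at the 99.6th, 98.5th and 97.0th percentile of GC content among the tested genes, whereas Bcl2l11 stood at the 36.4th and Pmaip1 at the 8.54th. This matters for what follows, because the libraries differed in the level of GC-rich relative to GC-poor genes.

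Each library held between 33415592 and 66478268 reads assigned to genes, and all 8 fibroblast markers exceeded an RPKM of 1, whereas the 4 epithelial markers summed to at most 0.366 and the 2 endothelial markers to at most 0.106. The 4 blood markers summed to between 4.12 and 7.80, most of it from Cd68 (3.72 to 7.61), with Cd79a at up to 1.34 and the defining genes Ptprc and Cd3e at or below 0.00532 and 0.0108. Of the 2 neuronal markers Tubb3 ran from 2.06 to 11.7 and Snap25 stayed at or below 0.346, and the part of these genes in the results was not tested. The contrast between GC-rich and GC-poor genes (top minus bottom decile of transcript GC content, log2, relative to the mean library) ran from -0.87 to 1.51 and differed between replicates of the same group. HS replicates 1 and 2 at 45 min (1.202 and 1.499) and HS replicate 2 at 135 min (1.51) stood highest, against 0.12, -0.84 and -0.83 in the reference. Where this moves with a result, the value from a fit that subtracts each library's trend with GC content, the GC offset, is given beside it. Of 4 stress markers (Hsph1, Hspa1b, Hspa5 and Ddit3), edgeR called 4 higher at 135 min of HS, 1 higher and 1 lower at 45 min of tunicamycin, 2 higher and 2 lower at 405 min of tunicamycin, and 0 in the other groups. The heat shock chaperone Hspa1b rose by 7.24 on the log2 scale (adjusted p = 0.0058) at 135 min of HS, and Ddit3, a transcription factor of the stressed endoplasmic reticulum, by 5.22 (SE 0.19, adjusted p = 2.45e-06) at 405 min of tunicamycin and by 2.32 (adjusted p = 0.0122) at 135 min of HS.

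Across genes, levels are given as RPKM, the authors' reads scaled to gene model length and library depth. In unstressed cells the effectors were the most abundant members. Bax stood at 122 ± 7.0 RPKM (mean ± SD, n = 3) and Bak1 at 75.9 ± 13.7. Bcl2l1 was the leading survival gene at 41.5 ± 0.36, above Bad (14.9 ± 0.52), Mcl1 (13.5 ± 5.3) and Bid (9.59 ± 1.84). The BH3-only genes Bbc3 (4.67 ± 0.68) and Bcl2l11 (2.34 ± 0.40) were lower, followed by Bcl2 itself (1.64 ± 0.12). Pmaip1 was lowest at 0.148 ± 0.089. In this order the neighbours Bad and Mcl1, and Mcl1 and Bid, overlapped between libraries, and the other neighbours did not.

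Within a gene, levels are given as CPM, read counts scaled to library depth with TMM factors over all 18 libraries. Changes are log2 fold changes from edgeR, tested by quasi-likelihood, and p-values were adjusted by Benjamini-Hochberg over the 12731 tested genes. A gene is called where its adjusted p is under 0.05. The plot of CPM by library shows the span of each member.

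**Figure D1:**
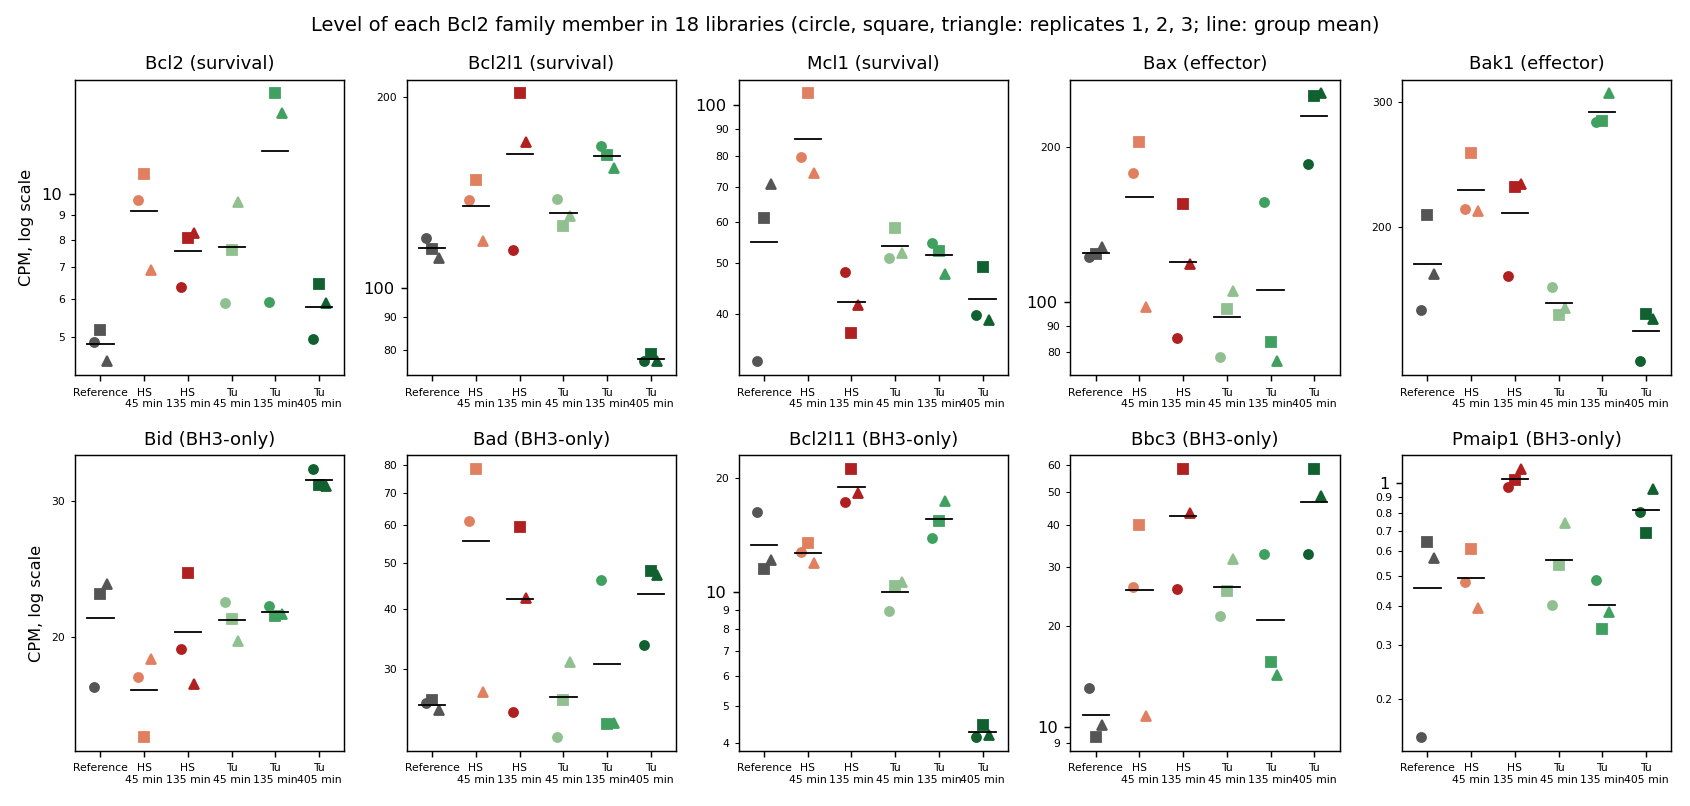
CPM (log scale, own axis for each gene) of the 10 members in the 18 libraries, with circle, square and triangle for replicates 1, 2 and 3 and a line at the group mean. Bcl2l11 at 405 min of tunicamycin (4.15 to 4.46 CPM) lies below every other library, and the high Bcl2 squares and triangles at 135 min of tunicamycin come from a longer gene model.

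Tunicamycin for 405 min gave the clearest change in the family. Transcripts of Bbc3, Bax, Bad and Bid rose, and those of Bcl2l11 and Bcl2l1 fell. Thus 4 of the 10 members were called higher and 2 lower, against 23.3% of all tested genes called higher and 23.5% lower (46.8% together). The share of members called was therefore not far from that of genes at large. The median change of the 10 members was 0.45 on the log2 scale, beside -0.01 for all tested genes. In RNA from a whole culture, fewer cells of a kind and less transcript per cell cannot be told apart.

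Bbc3, which encodes PUMA, a BH3-only protein that binds every survival member, read 32.8, 58.6 and 48.5 CPM at 405 min and 13.1, 9.34 and 10.1 in the reference. Every treated library lay above every reference library. The rise was 2.13 on the log2 scale (SE 0.24, 4.37-fold, edgeR adjusted p = 0.000294), and 1.86 (adjusted p = 3.62e-05) with the GC offset.

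Bcl2l11 moved the other way. It encodes BIM, another BH3-only protein that binds the whole survival class and also activates the effectors directly. It read 4.15, 4.46 and 4.19 CPM at 405 min against 16.3, 11.5 and 12.2 in the reference, without overlap. The change was -1.62 (SE 0.18, edgeR adjusted p = 0.000277), and -1.53 with the GC offset. As RPKM, the ratio of Bbc3 to Bcl2l11 was 1.94 to 2.05 in the reference libraries and 19.5 to 33.5 in the libraries at 405 min.

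The remaining BH3-only genes rose less. Bid, whose protein is cut by caspase-8 to become active, read 33.0, 31.4 and 31.3 CPM against 17.3, 22.8 and 23.4, a rise of 0.61 (SE 0.14, edgeR adjusted p = 0.00919). Bad, held inactive by survival kinases through phosphorylation, read 33.7, 48.0 and 47.1 against 25.5, 25.9 and 24.6, a rise of 0.78 (SE 0.16, adjusted p = 0.00504) that was 0.55 with the GC offset. Both lay above the reference in every library. Pmaip1, whose protein mainly binds MCL1, read 0.80, 0.69 and 0.95 CPM against 0.15, 0.64 and 0.57, all between 6 and 63 reads over the whole series. Its difference of 0.83 (SE 0.42) missed the threshold (adjusted p = 0.136), and with the GC offset it was 1.03 (adjusted p = 0.0376).

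The effectors parted. Bax read 185, 252 and 255 CPM at 405 min against 122, 124 and 128 in the reference, and rose by 0.91 (SE 0.15, edgeR adjusted p = 0.00178; 0.65 with the GC offset). Bak1, which sits on mitochondria in resting cells where BAX is mostly cytosolic, read 129, 151 and 148 against 152, 208 and 172, a difference of -0.29 (SE 0.15, adjusted p = 0.134). Its groups did not overlap, although the gap between the highest treated and the lowest reference library was narrow.

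Among survival genes, only Bcl2l1 passed the test at 405 min. It read 76.6, 78.7 and 76.7 CPM against 119.9, 115.01 and 111 in the reference, a change of -0.56 (SE 0.11, edgeR adjusted p = 0.00373), and -0.71 with the GC offset. The treated libraries lay below every other library of the series. Mcl1, which encodes a survival protein of short half-life, read 39.9, 49.1 and 39.0 against 32.5, 61.0 and 70.8, a difference of -0.34 (SE 0.26, adjusted p = 0.319), with reference replicate 1 as the lowest of the 6. Without that library the difference was -0.60 (edgeR adjusted p = 0.00228), and Bak1 was then also called lower (-0.38, adjusted p = 0.0154), so that the count became 4 higher and 4 lower. The share of all tested genes called in that fit is not given, so this count is not set against genes at large. Bcl2 read 4.95, 6.46 and 5.88 CPM against 4.87, 5.16 and 4.44, a difference of 0.28 (SE 0.17, adjusted p = 0.204).

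**Figure D2:**
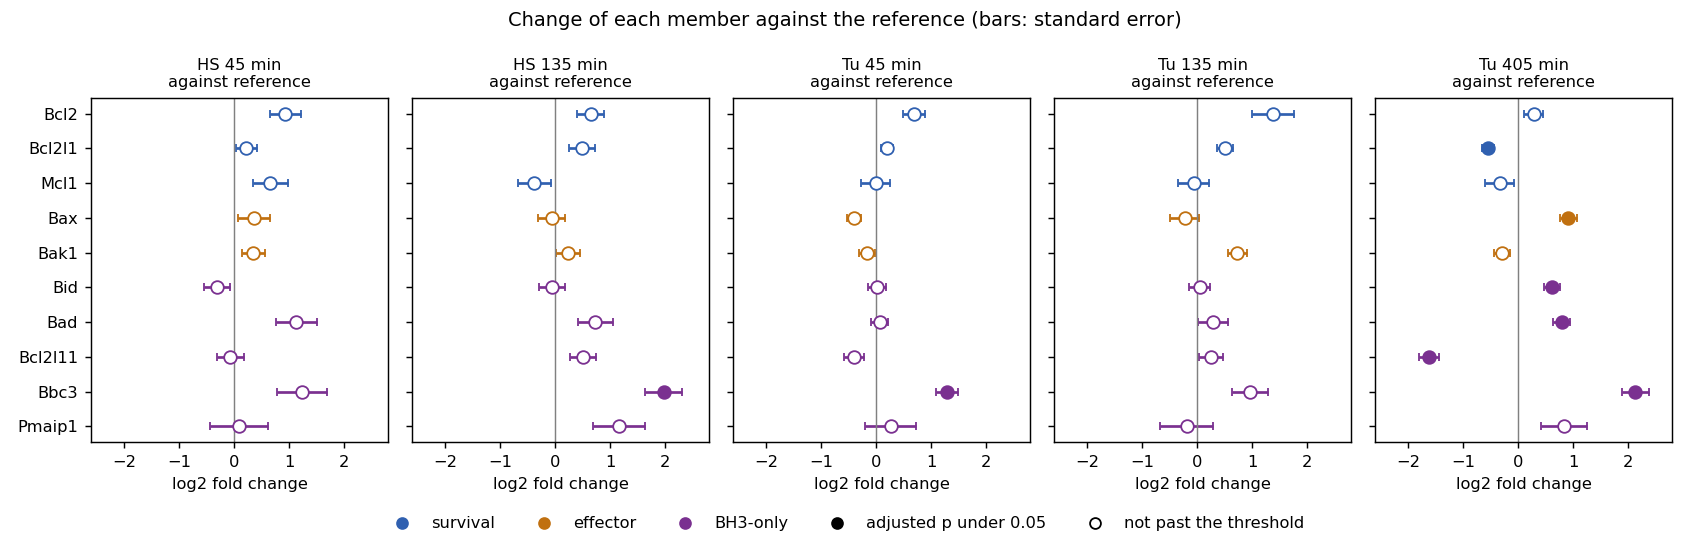
Log2 fold change against the reference (points, with standard errors) for the 10 members in the 5 stress groups, with colour for class and filled points for edgeR adjusted p under 0.05. Filled points number 6 at 405 min of tunicamycin and 1 each, Bbc3, at 45 min of tunicamycin and after the longer HS.

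Earlier in the tunicamycin course the family moved less. At 45 min, 1 of 10 members was called, higher, against 6.17% of tested genes called (4.01% higher). This was Bbc3, at 21.4, 25.4 and 31.6 CPM, above every reference library (1.28 on the log2 scale, SE 0.20, edgeR adjusted p = 0.0143; 1.202 with the GC offset). The GC measures of these libraries, -0.87, -0.55 and -0.02, stood in the same order. The call was lost without reference replicate 2, reference replicate 3 or tunicamycin replicate 2, with adjusted p up to 0.088 and a change between 1.14 and 1.43. Bcl2 (5.88, 7.62 and 9.61 CPM; 0.69, adjusted p = 0.09), Bax (78.1, 97.0 and 105 CPM; -0.40, adjusted p = 0.115) and Bcl2l11 (8.93, 10.4 and 10.7 CPM; -0.40, adjusted p = 0.219) did not pass, although none of them overlapped the reference. The other 6 members differed by -0.17 to 0.26, and of these Bcl2l1 (138, 125 and 130 CPM) also lay above every reference library. How many of all tested genes lay without overlap was not counted, so these separations are descriptions.

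At 135 min of tunicamycin no member was called by edgeR, where 0.134% of tested genes were called. At an unadjusted p under 0.05 stood 4 members, among them Bcl2, whose gene model differed between these libraries. The share of all genes at that looser threshold is not given. DESeq2 called Bcl2 and Bak1 higher, and how many of all genes it called there is not given. Bak1 read 281, 283 and 309 CPM, above every reference library (0.73, SE 0.18, edgeR adjusted p = 0.122). Bcl2l1 read 167, 162 and 154 CPM, also above (0.50, SE 0.15, adjusted p = 0.159). Bbc3 read 32.7, 15.7 and 14.3 CPM (0.95, SE 0.33, adjusted p = 0.197; 0.60 with the GC offset), its highest library being replicate 1, whose GC measure of 0.79 stood above the -0.45 and -0.43 of the other two.

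The count of Bcl2 at 135 min of tunicamycin cannot be set against the other groups. In 16 libraries the deposited row of Bcl2 spans chr1:108608350-108610867 of mm9, a short transcript at the 5′ end of the gene, but in tunicamycin replicates 2 and 3 at 135 min it spans chr1:108434756-108610867, the whole gene on the minus strand. The gene model behind the count was 2.86-fold longer there, and CPM read 5.90, 16.3 and 14.8 in the 3 replicates. The length-scaled RPKM read 1.80, 1.92 and 1.80, beside 1.59, 1.77 and 1.55 in the reference. With each count divided by the length its library used, the difference in Bcl2 of 1.38 (adjusted p = 0.14) became 0.23 (SE 0.20, adjusted p = 0.571). For the other 9 members the length varied by at most 1.05-fold.

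The stages of the tunicamycin course were also compared directly, between the treated groups. From 45 to 135 min, 1 of 10 members was called, higher, against 0.291% of tested genes (0.118% higher). Bak1 rose by 0.90 (SE 0.12, edgeR adjusted p = 0.0464), from 165, 150 and 153 CPM. It was not called when any library but replicate 1 at 135 min was left out (adjusted p up to 0.413), nor with total counts in place of TMM.

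From 135 to 405 min, 4 members were called higher and 4 lower, with 21.4% of tested genes called higher and 22.4% lower (43.7% together). Bak1 fell by 1.05, back below the reference libraries (SE 0.13, edgeR adjusted p = 0.000687). Bcl2l11 fell by 1.89 (SE 0.16, adjusted p = 0.000146) and Bcl2l1 by 1.08 (SE 0.11, adjusted p = 0.00035), from levels at 135 min that were the highest of the tunicamycin course. Bax rose by 1.11 (SE 0.29, adjusted p = 0.017), Bbc3 by 1.14 (SE 0.35, adjusted p = 0.0334), Pmaip1 by 1.004 (SE 0.26, adjusted p = 0.0159) and Bid by 0.54 (SE 0.12, adjusted p = 0.00926). The calls of Bax, Bbc3 and Bcl2 were lost without tunicamycin replicate 2 or 3 at either time (Bcl2 also without replicate 1 at 405 min), and that of Pmaip1 without replicate 2 at 135 min or replicate 3 at 405 min. Bcl2, the eighth call, was -1.12 with the unequal gene models and 0.03 (adjusted p = 0.912) once they were divided out.

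From 45 to 405 min, 4 members were called higher and 3 lower, with 24.4% of tested genes called higher and 28.1% lower (52.5% together). Bax (1.26, SE 0.15), Bbc3 (0.80, SE 0.21), Bad (0.67, SE 0.17) and Bid (0.55, SE 0.11) rose, with edgeR adjusted p between 0.000249 and 0.0132. Bcl2l11 (-1.27, SE 0.13, adjusted p = 9.94e-05), Bcl2l1 (-0.81, SE 0.09, adjusted p = 0.000167) and Mcl1 (-0.38, SE 0.12, adjusted p = 0.0279) fell. The call of Mcl1 was lost without replicate 2 at 45 min or replicate 1 or 3 at 405 min (adjusted p up to 0.165), and that of Bbc3 without replicate 2 at 405 min (adjusted p = 0.0559). A fit sharing its spread over all 6 groups called 4 of these members, without Mcl1 (edgeR adjusted p = 0.305), Bad (0.178) and Bbc3 (0.165). The share of all tested genes called in that shared fit is not given. The comparisons along the course share libraries and are not independent of each other.

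Heat stress for 45 min gave no call at all by edgeR. The count was 0 of 10 members and 0 of 12731 genes (0.0%), with 3 members and, over all genes, 1568 higher and 912 lower at an unadjusted p under 0.05. DESeq2 called 386 genes higher and 65 lower, and 0 members. The larger differences were in Bbc3 (26.1, 39.8 and 10.8 CPM; 1.24, SE 0.45, adjusted p = 0.236), Bad (60.9, 78.4 and 26.9 CPM; 1.13, SE 0.37, adjusted p = 0.23) and Bcl2 (9.70, 11.02 and 6.90 CPM; 0.93, SE 0.28, adjusted p = 0.227). In each, replicates 1 and 2 were high and replicate 3 was nearest the reference, in the same order as the GC measure of these libraries. With the GC offset Bbc3 differed by 0.08 (adjusted p = 0.762) and Bad by 0.21. Bcl2 differed by 1.35 (adjusted p = 0.138) with that offset, which used the GC content of its longest coding transcript (46.3%, the 27.2nd percentile of tested genes). The Bcl2 row of these libraries covers only the short transcript at the 5′ end, whose own GC content was not measured. Whether the offset suits Bcl2 was therefore not tested. Bax (178, 205 and 97.6 CPM) went from 0.36 to -0.57 with that offset, both short of the threshold. Without HS replicate 3, 4 members were called higher, namely Bcl2, Bax, Bad and Bbc3 (1.60, edgeR adjusted p = 0.0033). The share of all genes called in that fit is not given, so this count is not set against genes at large.

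Mcl1 read 79.6, 106 and 74.2 CPM at 45 min of HS, above every reference library (0.66, SE 0.32, edgeR adjusted p = 0.272). At 135 min of HS it read 48.2, 36.8 and 41.6 CPM (-0.38 against the reference, adjusted p = 0.43). The fall between these times, -1.08 (SE 0.23), had an adjusted p of 0.177 in a comparison where edgeR called 0 of 12731 genes (0.0%) and 0 members. At an unadjusted p under 0.05 stood 3 members, a threshold for which the share of all genes is not given. DESeq2 called 194 genes higher and 209 lower there, and 1 member, Mcl1 (adjusted p = 0.00982). Pmaip1 (1.02, SE 0.30, adjusted p = 0.29) and Bbc3 (0.68, SE 0.52, adjusted p = 0.717) differed in the other direction, and Bbc3 was called with the GC offset (1.31, adjusted p = 0.0374).

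After 135 min of HS, Bbc3 was the 1 member of 10 that was called, against 7.39% of tested genes (4.75% higher). It read 25.7, 58.6 and 43.4 CPM, all above the reference. The rise was 1.97 on the log2 scale (SE 0.34, 3.93-fold, edgeR adjusted p = 0.0206), and 1.44 (adjusted p = 0.0042) with the GC offset. The order of the replicates was that of their GC measures, -0.53, 1.51 and 0.25. The call was lost without reference replicate 2, reference replicate 3 or HS replicate 3 (adjusted p up to 0.12, change between 1.70 and 2.23). Without HS replicate 1, Bcl2l1 and Bad were called as well, in a fit for which the share of all genes called is not given.

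Pmaip1 read 0.96, 1.02 and 1.11 CPM in the HS libraries at 135 min, above every reference library. Its difference of 1.15 (SE 0.47) missed the threshold (edgeR adjusted p = 0.151), and with the GC offset it was called (1.67, adjusted p = 0.0429). Bad (24.5, 59.4 and 42.3 CPM; 0.73, adjusted p = 0.17) again followed the order of the GC measure, and was 0.13 with the offset. Bcl2l11 read 17.4, 21.2 and 18.3 CPM (0.51, adjusted p = 0.196), above the reference and opposite to its fall at 405 min of tunicamycin. Bcl2 (6.37, 8.07 and 8.27 CPM; 0.65, adjusted p = 0.128) and Bcl2l1 (114.7, 202 and 170 CPM; 0.49, adjusted p = 0.208) did not pass either. The other 3 members, Bax, Bak1 and Bid, lay between -0.06 and 0.24.

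HS and tunicamycin were compared with each other at the 2 times they share. At 45 min no member was called by edgeR, and 0.204% of tested genes were. At the looser threshold of an unadjusted p under 0.05 stood 4 members, without a share of all genes to set beside them. DESeq2 called 2 members, Mcl1 and Bak1, and its count over all genes is not given here. Bbc3, which rose in the tunicamycin libraries, differed by -0.03 (SE 0.45, adjusted p = 0.967) and by -1.11 (adjusted p = 0.0177, lower in HS) with the GC offset. Mcl1 was 0.68 higher in HS (SE 0.19, adjusted p = 0.14), and Bad 1.08 higher (SE 0.39, adjusted p = 0.179). Without HS replicate 3, 4 members (Mcl1, Bax, Bak1 and Bad) were called higher in HS. How many of all genes that fit called is not given, so the 4 are not read as a result about the family.

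At 135 min no member was called by edgeR between HS and tunicamycin, with 2.12% of tested genes called. At an unadjusted p under 0.05 stood 3 members, and the share of all genes at that threshold is not given. Pmaip1 came nearest, at 0.96 to 1.11 CPM with HS and 0.34 to 0.48 with tunicamycin (1.33, SE 0.27, edgeR adjusted p = 0.0587). DESeq2 called Pmaip1 (adjusted p = 0.00924), and its count over all genes is not given. Bbc3 was 1.01 higher with HS (SE 0.42, adjusted p = 0.242) and 0.82 with the GC offset, where it was called (adjusted p = 0.0147).

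**Figure D3:**
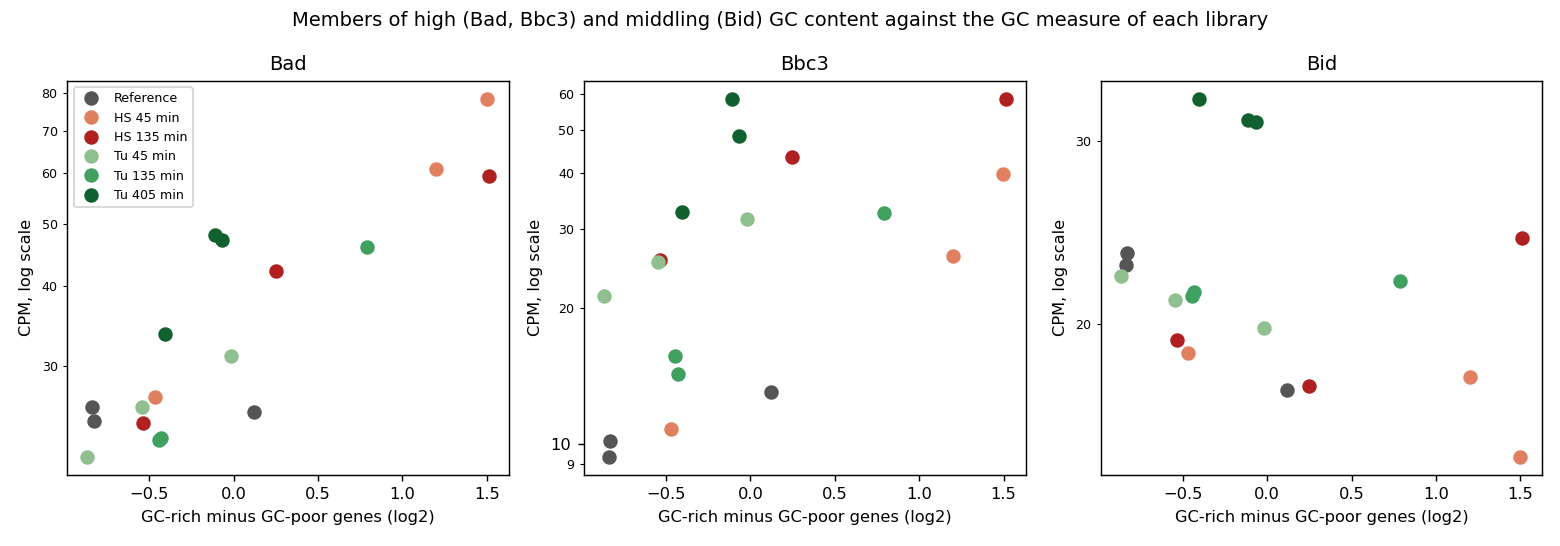
CPM (log scale) of Bad, Bbc3 and Bid against each library's contrast between GC-rich and GC-poor genes (log2), 1 point per library and colour for group. Bad climbs from left to right across groups, Bbc3 is highest in the library with the highest GC measure in 5 of the 6 groups, 405 min of tunicamycin being the exception, and Bid at 405 min of tunicamycin stands above all others.

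Summed by class in RPKM, the survival, effector and BH3-only transcripts made up 19.8% ± 0.53, 69.2% ± 0.79 and 11.1% ± 0.55 of the family in the reference (SD, n = 3). These shares are descriptions with no test. At 405 min of tunicamycin the survival share was 11.98%, 10.1% and 9.40%, the lowest of any group, the effector share 72.7% to 75.3% and the BH3-only share 15.3% to 16.3%. The survival share in the other stress groups lay between 17.8% and 26.2%. The BH3-only share was highest on average in the HS libraries at 135 min (15.1%, 18.3% and 16.0%), of which Bbc3 made up 29.6% to 34.1%, beside 12.7% to 17.98% in the reference.

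The balance of Bcl2l1 to Bax, the most abundant survival gene and effector of unstressed cells, was widest apart at 405 min of tunicamycin. The ratio of their RPKM was 0.360, 0.341 and 0.319 in the reference and 0.152, 0.114 and 0.110 at 405 min of tunicamycin, without overlap with any other library. It was higher than the reference in the earlier tunicamycin groups (0.452 to 0.648 at 45 min, and 0.392 to 0.739 at 135 min, where Bak1 averaged 121 RPKM and Bax 98.9) and in the later HS group (0.478 to 0.525). At 45 min of HS it read 0.282, 0.265 and 0.445, on both sides of the reference. In each of the 5 stress groups the library with the highest GC measure had the lowest ratio, whereas in the reference it had the highest, and the part of GC content in this ratio was not tested.

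**Figure D4:**
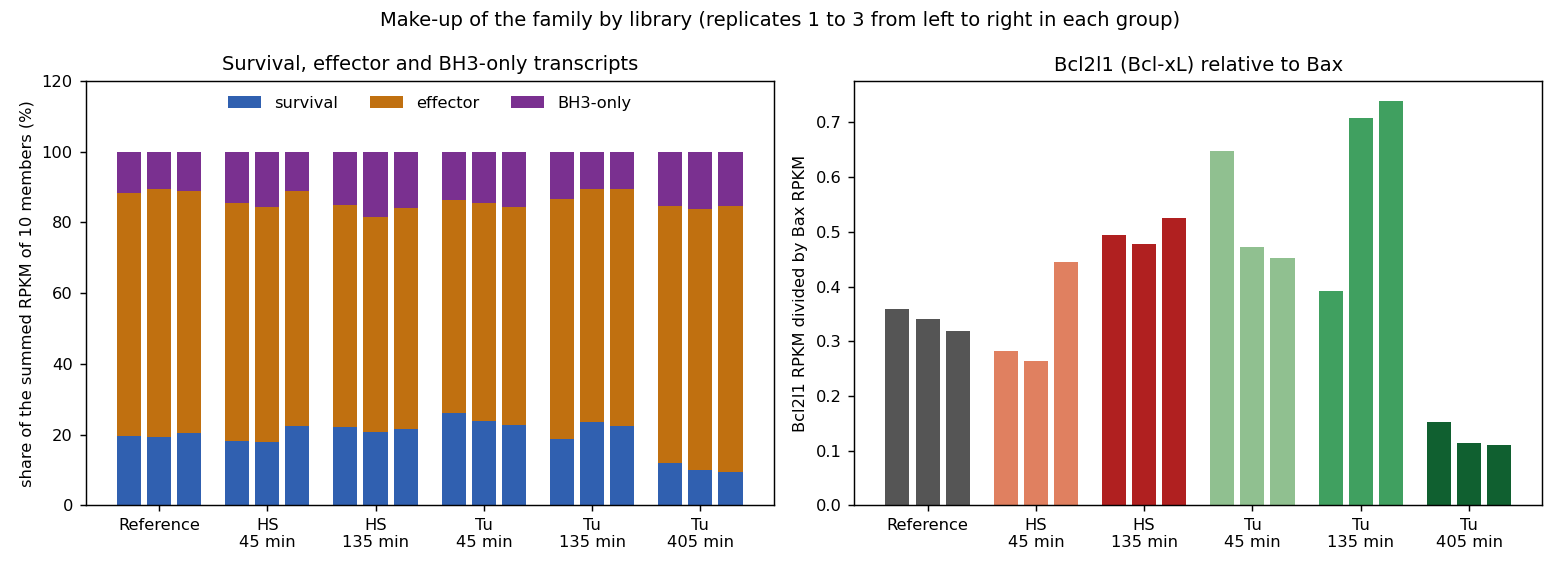
Left, share of the summed RPKM of the 10 members held by survival, effector and BH3-only genes in each library. Right, the RPKM of Bcl2l1 divided by that of Bax. At 405 min of tunicamycin the survival share (9.40% to 11.98%) and the ratio (0.110 to 0.152) lie below every other library.

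The 2 members with the widest spread of group means were Bcl2l11 (2.15 on the log2 scale) and Bbc3 (2.08), which moved in opposite directions at 405 min of tunicamycin. Their promoters are shown for that reason, as the 250 bases before the first RefSeq start site listed for each gene (GRCm38.p6, a different build from the files), with GC boxes, GGGCGG on either strand, in capitals.
Bbc3, chr7:16309333-16309582, plus strand: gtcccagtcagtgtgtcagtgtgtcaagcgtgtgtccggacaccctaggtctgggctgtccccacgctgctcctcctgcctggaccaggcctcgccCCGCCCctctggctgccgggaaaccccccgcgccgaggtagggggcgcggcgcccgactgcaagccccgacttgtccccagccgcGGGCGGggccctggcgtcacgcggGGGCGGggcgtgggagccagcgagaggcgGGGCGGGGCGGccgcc
Bcl2l11, chr2:128125788-128126037, plus strand: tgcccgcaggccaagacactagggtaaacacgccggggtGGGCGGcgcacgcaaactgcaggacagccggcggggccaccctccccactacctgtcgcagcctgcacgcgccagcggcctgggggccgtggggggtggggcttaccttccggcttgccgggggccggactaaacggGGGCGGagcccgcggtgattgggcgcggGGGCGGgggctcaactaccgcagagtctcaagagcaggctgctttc
These windows hold 5 and 3 GC boxes and are 76.4% and 72.0% G and C, and 32.7% of the 32851 promoter windows of the same length hold at least 1. Windows at the other listed start sites hold 1 and 7 GC boxes for Bbc3 and 2 for Bcl2l11. The counts thus depend on the start site taken. The core TTGCATCA, bound by C/EBP-ATF factors, which 0.791% of windows hold on either strand, was found in none of the 15 windows of 9 members. A pair of heat shock elements, GAANNTTC, was found in 1 Bad window (6.69% of all windows), and a p53 half-site in the Bax window (7.13%). No match says only that these letters are not in this window.

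Genes around the family, from lists of textbook members, were also counted at 405 min of tunicamycin, in a comparison where 23.3% of tested genes were called higher and 23.5% lower (46.8% together). Among 11 tested other genes of the family, 2 were called higher and 2 lower. Bmf, a further BH3-only gene, fell from 3.83 ± 2.11 to 0.44 ± 0.09 CPM (SD, n = 3; -3.11 on the log2 scale, SE 0.45, edgeR adjusted p = 0.000959), and the effector relative Bok fell by 1.02 (SE 0.18, adjusted p = 0.00218). Of 15 genes for cytochrome c release, the apoptosome and caspases, 2 were called higher and 6 lower, with Casp6 at -1.15 (SE 0.13, adjusted p = 0.000254) and Apaf1, the apoptosome scaffold, at -0.999. Of 5 caspase inhibitors, 2 were called lower, Birc6 (-1.82) and Xiap (-0.95). The genes named so far were picked by smallest p and all fell, and those called higher in the same lists are not named. Of 16 regulators of the members, 5 were called higher and 8 lower. The list medians were 0.01, -0.26, -0.39 and -0.28, beside -0.01 for all tested genes.

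Among the regulators, Ddit3 and Atf4, transcription factors of the response to a stressed endoplasmic reticulum, were called higher in the 3 groups where Bbc3 was. Ddit3 rose by 2.92 and Atf4 by 0.76 with the shortest tunicamycin treatment, by 5.22 and 1.61 with the longest, and by 2.32 and 1.57 with the longer HS. The adaptor Ywhaz, which holds phosphorylated BAD in the cytosol, fell by 1.29 at 405 min of tunicamycin (SE 0.13, edgeR adjusted p = 0.000154). No gene of these lists was called by edgeR at 45 min of HS or 135 min of tunicamycin. Only 0.0% and 0.134% of all tested genes were called there, so sharing the groups of Bbc3 says little. Ddit3 differed by 1.39 and 1.54 in these groups and Atf4 by 1.14 and 0.91, short of the threshold. A link of either gene to Bbc3 was not tested.

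Over the 18 libraries, the genes whose log2 CPM ran most like that of Bcl2l11 were Akap13 (Pearson's r = 0.965) and A830007P12Rik (0.964). For Bbc3 they were Kctd15 (0.961) and Stk40 (0.956), and for the sparsely counted Pmaip1 they were Cdc26 (0.933) and Syf2 (0.928). These are descriptions over libraries that share groups and GC measures, given without a p.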

How the data were processed

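mRNA-seq libraries of NIH3T3 DD-GFP cells, 3 per group in 6 groups, were analysed from the tables per library that the authors deposited. Per the paper's methods poly(A) RNA was read by the authors on a HiSeq instrument. The reads were placed on mm9 and assigned to RefSeq gene models. Aligner and counter versions are not given in the sources used here. For library preparation the methods name a modified Illumina protocol and also a NuGEN kit. The labels do not say which library had which, and its part in the GC measures was not tested. The authors' read counts are estimated counts, some not whole and written to 4 digits, and were rounded to whole numbers. The authors' RPKM values were used for levels across genes. A score that the authors centred on each library's mean RPKM and divided by its SD was not used. A signal that the authors made by dividing RPKM by its root mean square was not used either.

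Genes with at least 1 read in every library were tested with edgeR 4.0.16 in R 4.3.3 (TMM, glmQLFit and glmQLFTest, two-sided) on the 6 libraries of each of 11 comparisons, with Benjamini-Hochberg adjustment and a threshold of 0.05. SE was derived from the F statistic. CPM used TMM factors over all 18 libraries. Alternatives were DESeq2 1.42.0, other filters and scalings, 1 fit over all groups, a block for replicate number, a GC offset (a lowess trend of span 0.3 for each library, transcript GC content known for 97.7% of tested genes), each library left out, and, chosen after seeing the data, an offset for gene model length. Totals of 33415592 to 66478268 reads mean that 3 reads, the floor, equal 0.0451 to 0.0898 CPM, which covers counting error only. No 2 replicates agreed within sampling noise. The numbers of the labels paired libraries by correlated deviations (r from 0.186 to 0.282, every pair over 0.1) only for 135 min of tunicamycin against the reference, where the block left the count at 0. Scripts were tested on simulated data, with means and spread taken from the real libraries. Of well-covered genes changed by 1 on the log2 scale, 4% were called for 135 min of HS and 80% for 405 min of tunicamycin. Of those changed by 2, 77% and 99% were called. False calls made up 3.57% and 8.67% of the calls. Fewer calls with HS therefore do not show smaller changes.

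All 10 members and at most 3 further genes per list (from those of smallest p over the comparisons with the reference, of which 1 is not reported here) were named, with the 2 genes most correlated with each of the 3 members of widest range in group mean log2 CPM. The members and lists were chosen with earlier results of these data known. Sequences came from GENCODE vM1 and from RefSeq promoter windows (GRCm38.p6).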

Additional observations from a re-analysis of the deposited data

Results flagged for a closer look

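Direct comparisons between treated groups were singled out where a member passed the test of the difference itself (edgeR, Benjamini-Hochberg adjustment over all tested genes). From 45 to 135 min of tunicamycin this was Bak1 (0.90 on the log2 scale).

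From 135 to 405 min the differences were Bcl2l11 (-1.89), Bcl2 (-1.12), Bcl2l1 (-1.08), Bak1 (-1.05), Bid (0.54), Pmaip1 (1.004), Bax (1.11) and Bbc3 (1.14). That of Bcl2 rests on the longer gene model in 2 libraries at 135 min and was 0.0259 once length was divided out.

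From 45 to 405 min they were Bcl2l11 (-1.27), Bcl2l1 (-0.81), Mcl1 (-0.38), Bid (0.55), Bad (0.67), Bbc3 (0.80) and Bax (1.26). Groups of 3 libraries were too small for a search for single outlying libraries.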

How the results depend on the processing

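The 4 higher and 2 lower members at 405 min of tunicamycin stayed at 6 calls in all with another filter, DESeq2 size factors, total counts, DESeq2's test, the replicate block and the length offset, and at 5 to 8 with the shared fit of all groups, the GC offset (with or without the block) or a library left out. The smaller counts moved more, and for none of these was the cause tested. The share of all genes called in each setting is not given here. With DESeq2's test 2 members were called at 45 min and 2 at 135 min of tunicamycin, 1 between the HS times, 2 from 45 to 135 min of tunicamycin, and 2 and 1 between HS and tunicamycin at 45 and 135 min. The shared fit called 4 members at 135 min of HS, 0 at 45 min and 2 at 135 min of tunicamycin, 2 between the HS times, 4 from 45 to 405 min of tunicamycin, and 1 and 2 between HS and tunicamycin. The GC offset called 2 at 135 min of HS, 1 between the HS times, 2 from 45 to 135 min of tunicamycin, and 1 and 1 between HS and tunicamycin. Total counts called 0 from 45 to 135 min of tunicamycin and shifted the members by a median of -0.19 (log2) at 45 min of HS, -0.18 at 135 min of HS, 0.10 at 45 min and -0.10 at 405 min of tunicamycin. The sign of 1 member turned with total counts at 45 min of HS (Pmaip1), 1 at 45 min of tunicamycin (Mcl1), 1 from 45 to 135 min of tunicamycin (Bid), and 2 (Bcl2 and Bcl2l1) and 1 (Bax) between HS and tunicamycin at 45 and 135 min, none of them called, and 0 in the other comparisons.

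The labels share replicate numbers, and with the replicate block 0 members were called at 135 min of HS (Bbc3 1.91, adjusted p = 0.143), 0 at 45 min of tunicamycin (Bbc3 1.28, adjusted p = 0.114), 0 from 45 to 135 min and 4 from 135 to 405 min. With the block and the GC offset together the counts were 2 at 135 min of HS and 0 from 45 to 135 min of tunicamycin. The shares of all tested genes called with the block are not given, so these counts are not set against genes at large. Correlations of same-numbered libraries averaged from -0.49 to 0.18 in the 10 comparisons where the numbers were not taken to pair them.

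With each library left out in turn, the count ran from 0 to 4 at 45 min and 0 to 3 at 135 min of HS, 0 to 1 at 45 min, 0 to 1 at 135 min and 6 to 8 at 405 min of tunicamycin, 0 to 1 from 45 to 135 min, 4 to 9 from 135 to 405 min, 6 to 8 from 45 to 405 min, and 0 to 4 between HS and tunicamycin at 45 min. Between the HS times, and between HS and tunicamycin at 135 min, it was 0 throughout. The shares of all tested genes called in these fits are not given, so the counts are not set against genes at large.

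Signs turned in a few uncalled or doubtful values. Bax at 45 min of HS was -0.57 with the GC offset and -0.56 with the block added. Bbc3 between HS and tunicamycin at 45 min was 0.0102 with DESeq2 size factors and 0.0104 with DESeq2's test, and ran from -0.51 to 0.34 with a library left out (0.34 without HS replicate 3, 0.08 without tunicamycin replicate 3). Bcl2 from 135 to 405 min of tunicamycin was 0.0259 with the length offset. Depth limits mainly Pmaip1, with 6 to 63 reads in a library.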
